A study of Mus musculus with 8 samples.

Results

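Among the genes counted in microglia sorted from *Smad2/3* fl/fl;Cx3cr1Cre mutant mice and control mice, 42 genes that build, fill or regulate the lysosome were examined. They were chosen by symbol as lysosomal membrane proteins, glycosidases, sulfatases, enzymes and cofactors of lipid breakdown, proteases with progranulin, transcription factors of the MiT/TFE family, and subunits of the proton pump, with the cathepsins left out. Of these 42 genes among 55573 in the count table, 41 were tested, each with 10 or more counts in 4 or more libraries. *Atp6v0d2*, a pump subunit, had no count in any of the 8 libraries. The mutants carried floxed alleles of *Smad2* and *Smad3*, which encode carriers of the TGFβ signal, and were designed to lose them in cells that express Cre from the *Cx3cr1* locus, which covers microglia and related macrophages. The controls are called WT in the labels, but the Methods say that no true wild types were used and that controls generally carried Cre and a floxed allele. Both groups held 4 mice at postnatal day 60, backcrossed to C57BL6/J, with 1 library of bulk RNA per mouse.

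Lysosomes are acidic organelles in which hydrolases break down proteins, glycans and lipids taken up by endocytosis, phagocytosis or autophagy. A vacuolar proton pump acidifies the lumen, membrane proteins carry ions and breakdown products across the membrane, and the factors Tfeb, Tfe3 and Mitf drive many lysosomal genes through a short promoter element. Microglia are rich in lysosomes, and loss of single genes of this set, such as *Grn*, *Naglu* or *Npc1*, causes storage or neurodegenerative disease.

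The libraries held between 35639502 and 41946479 counts on genes. The targeted gene *Smad3* was lower in the mutants (log2 fold change -1.33 ± 0.36 SE, edgeR adjusted p = 0.0429), with mutant 3 at 35.1 CPM (counts scaled to a common library size by TMM) against 9.61 to 17.5 in the other mutants, and its call held in 1 of the 8 fits that left out 1 mouse. *Smad2* had a log2 fold change of -0.34 (adjusted p = 0.34), and whole-gene counts do not show whether an exon was lost. *Xist* was at 99.5 to 183 CPM in the controls and at most 0.562 in the mutants, and the Y-linked *Ddx3y* at 9.74 to 59.8 CPM in the mutants and at most 0.224 in the controls, so sex and genotype cannot be told apart. Of 8 microglia markers, 7 were lower in the mutants and none was higher, and their summed level was 22981 to 35992 CPM in the controls and 4986 to 7170 CPM in the mutants. *Itgam*, among the 7, shares 68.7% of its exon bases with *Gm49368* on the same strand, so its counts may be incomplete. Of 6 border macrophage markers, 4 (*Mrc1*, *Pf4*, *Cd163* and *Ms4a7*) were higher and none was lower, with summed levels of 47.5 to 93.2 CPM in the controls and 1598 to 2485 CPM in the mutants. None of 5 neuron and 5 oligodendrocyte markers was called by edgeR or DESeq2, 0 had an unadjusted p under 0.05 with edgeR, and both sums overlapped between groups (25.1 to 269.7 against 77.2 to 270.3 CPM, and 552 to 3852 against 967 to 3187 CPM). Of 5 astrocyte markers 1 was lower (*Slc1a3*) and 4 were not called. Their sums did not overlap, at 1416 to 2360 CPM in the controls and 328 to 1207 CPM in the mutants. In the controls *Slc1a3* was highest in control 3 (1758 CPM), while the other 4 were highest in control 1. Of 5 tested vascular markers 1 was lower (*Pdgfrb*), and 2 were with DESeq2. Sums of the 6 listed vascular markers were low and did not overlap, at 13.4 to 32.7 CPM in the controls and 2.40 to 8.96 CPM in the mutants. Of 7 blood leukocyte markers 1 was higher (*Cd3e*, at most 9.41 CPM in any mouse). Log2 fold changes were below 0 for 5 of the 7. The lowest was *Ngp* (-1.97, adjusted p = 0.0512 with edgeR and 0.0027 with DESeq2). The leukocyte sums overlapped, at 558 to 2186 CPM in the controls and 288 to 860 CPM in the mutants. Mitochondrial genes took 0.819 to 4.60% of counts in the controls and 3.04 to 4.56% in the mutants. The part of these shifts in the lysosomal differences was not tested, and in bulk RNA fewer cells of a type and less RNA per cell cannot be told apart.

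The lysosomal genes did not move as 1 block. At an adjusted p under 0.05, 11 of the 41 genes were lower in the mutants, 1 was higher and 29 were not called, 8 of which had an unadjusted p under 0.05. The 11 were *Lgmn*, *Arsb*, *Naglu*, *Tfe3*, *Tfeb*, *Clcn7*, *Psap*, *Grn*, *Scarb2*, *Ostm1* and *Tpp1*, and the higher gene was *Sgsh*. Lower calls were 26.8% of the set against 7.97% of all 20153 genes tested, and the 1 higher call was 2.44% against 4.36%. The set was chosen with earlier results of these data known, so its shares only describe it. Highly expressed genes were called more often: among the 6851 genes at least as high in mean level as the lowest tested member, 16.4% were called lower and 6.61% higher. The median log2 fold change of the set was -0.22, against 0.01 for all genes tested and -0.15 for the genes at least as high. Values below 0 were found for 30 of 41 genes (73.2%), against 49.4% of all genes and 59.1% of the genes at least as high.

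In 11 genes all 4 mutants lay below all 4 controls in CPM (26.8%), which held for 13% of all genes tested. The share without overlap among highly expressed genes was not computed. All mutants lay above all controls in 3 genes, *Sgsh*, *Cd68* and *Lipa*, and in 9.04% of all genes. With DESeq2 in place of edgeR, *Cd68* was called higher and *Npc1* lower as well, for 2 higher and 12 lower genes, against 9.11% higher and 11.6% lower among the 22931 genes to which DESeq2 gave an adjusted p. The number of lower calls in the set fell when some mice were left out. It was 6 without control 3, without mutant 2 or without mutant 4, and 7 without control 2. With both replicate 1 libraries left out it was 7. Lower calls over all genes fell as well, from 1607 to 1005 without control 3 and 1047 without control 2. They were 1114 without mutant 2, 1205 without mutant 4 and 1233 with both replicate 1 libraries left out, so calls were lost outside the set too. Whether the set lost a larger share of its calls was not tested. *Lgmn*, *Arsb*, *Naglu*, *Tfe3*, *Tfeb* and *Sgsh* kept their call in each of the 8 fits that left out 1 mouse. The set holds 5 X-linked genes (*Lamp2*, *Gla*, *Ids*, *Tfe3* and *Atp6ap1*), of which *Tfe3* was called, and the autosomal genes gave 10 lower calls and 1 higher call of 36.

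**Figure D1:**
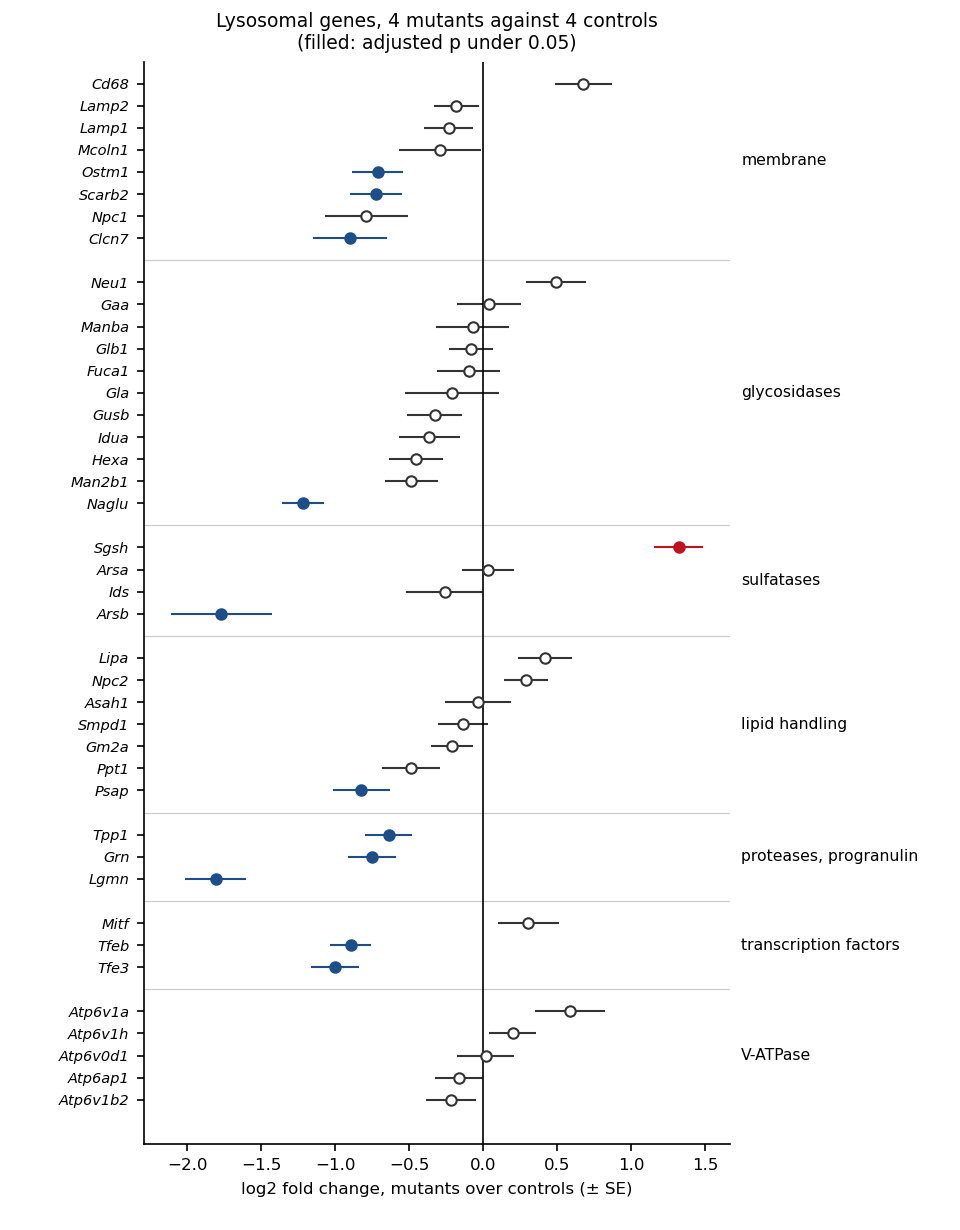
Log2 fold change of mutants over controls on the horizontal axis, with its standard error, for the 41 tested lysosomal genes grouped by role; filled points passed the test (blue lower, red higher) and open points did not. The 11 blue points lie between -1.81 and -0.64, the only red point is *Sgsh* at 1.32, and no proton pump subunit is filled.

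All 3 genes of the protease group were lower in the mutants. *Lgmn* (ENSMUSG00000021190, chr12:102394084-102439813, GRCm38) encodes legumain, an asparaginyl endopeptidase that also matures cathepsins. It was at 2604, 3021, 4350 and 3091 CPM in the 4 controls and at 940, 940, 1099 and 754 CPM in the 4 mutants. The lowest control (2604 CPM) was far above the highest mutant (1099 CPM), and the fitted difference was 3.50-fold (log2 fold change -1.81 ± 0.21 SE, edgeR adjusted p = 0.000759).

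*Grn* (ENSMUSG00000034708, chr11:102430315-102437048) encodes progranulin, a secreted and lysosomal glycoprotein that is cut into granulins. Its level was 2242, 2529, 3354 and 2716 CPM in the controls and 1665, 1603, 1668 and 1515 CPM in the mutants, which were close to each other and all below the controls. The difference was 1.68-fold (log2 fold change -0.75 ± 0.16 SE, edgeR adjusted p = 0.0173), and the call was lost only without mutant 4 among the fits that left out 1 mouse (adjusted p = 0.0545). *Tpp1* (ENSMUSG00000030894, chr7:105744811-105752235) encodes tripeptidyl peptidase 1, which removes tripeptides from protein ends and is lost in a childhood ceroid lipofuscinosis. Control values were 490, 557, 632 and 547 CPM and mutant values 383, 318, 418 and 311 CPM, with no overlap (log2 fold change -0.64 ± 0.16 SE, edgeR adjusted p = 0.0299). The call held in 3 of the 8 fits that left out 1 mouse.

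Of the 8 membrane proteins, 3 were lower, none was higher and 5 were not called. The most abundant structural proteins of the lysosomal membrane were not among the 3. *Lamp1* was at 967, 1076, 1235 and 987 CPM in the controls and 1006, 735, 1032 and 857 CPM in the mutants, and *Lamp2* at 458, 503, 532 and 451 CPM and 472, 346, 464 and 431 CPM. Both ranges overlapped, with log2 fold changes of -0.23 ± 0.16 SE (edgeR adjusted p = 0.396) for *Lamp1* and -0.18 ± 0.15 SE (adjusted p = 0.474) for *Lamp2*. *Cd68*, which encodes the macrophage lysosomal glycoprotein macrosialin, was at 832, 1023, 1422 and 1243 CPM in the controls and 1574, 1927, 1701 and 2018 CPM in the mutants. Every mutant was above every control, but the difference did not pass the test with edgeR (log2 fold change 0.68 ± 0.19 SE, adjusted p = 0.0535) and passed with DESeq2 (adjusted p = 0.0115).

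*Scarb2* (ENSMUSG00000029426, chr5:92441314-92506833) encodes Limp2, which carries glucocerebrosidase to the lysosome. Its controls were at 164, 174, 258 and 219 CPM and its mutants at 118, 117, 142 and 116 CPM, a 1.65-fold difference without overlap (log2 fold change -0.73 ± 0.18 SE, edgeR adjusted p = 0.0293). *Clcn7* (ENSMUSG00000036636, chr17:25133391-25162104), the lysosomal chloride-proton exchanger, was at 53.5, 78.1, 102 and 68.3 CPM in the controls and 33.4, 29.8, 52.7 and 46.1 CPM in the mutants. Mutant 3 lay just under control 1, and the difference passed narrowly (log2 fold change -0.90 ± 0.25 SE, edgeR adjusted p = 0.0491). *Ostm1* (ENSMUSG00000038280, chr10:42583822-42702459) encodes the subunit that stabilises that exchanger. It was at 41.5, 51.4, 52.9 and 38.4 CPM in the controls and 29.2, 24.8, 25.5 and 32.9 CPM in the mutants, again without overlap (log2 fold change -0.71 ± 0.17 SE, edgeR adjusted p = 0.0281). The partners fell side by side: per kilobase of exon, the ratio of *Clcn7* to *Ostm1* was 1.76 to 2.63 in the controls and 1.56 to 2.82 in the mutants, and these ranges overlapped. In the fits that left out 1 mouse, the calls held in 3 of 8 for *Scarb2*, 2 of 8 for *Clcn7* and 4 of 8 for *Ostm1*. These calls, with those of *Tpp1* and *Psap*, were lost most often when a mouse was left out. The cholesterol exporter *Npc1* was at 50.4 to 136 CPM in the controls and 46.3 to 57.9 CPM in the mutants (log2 fold change -0.79, adjusted p = 0.0996 with edgeR and 0.0491 with DESeq2). The calcium channel gene *Mcoln1* had a log2 fold change of -0.29 (adjusted p = 0.536).

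**Figure D2:**
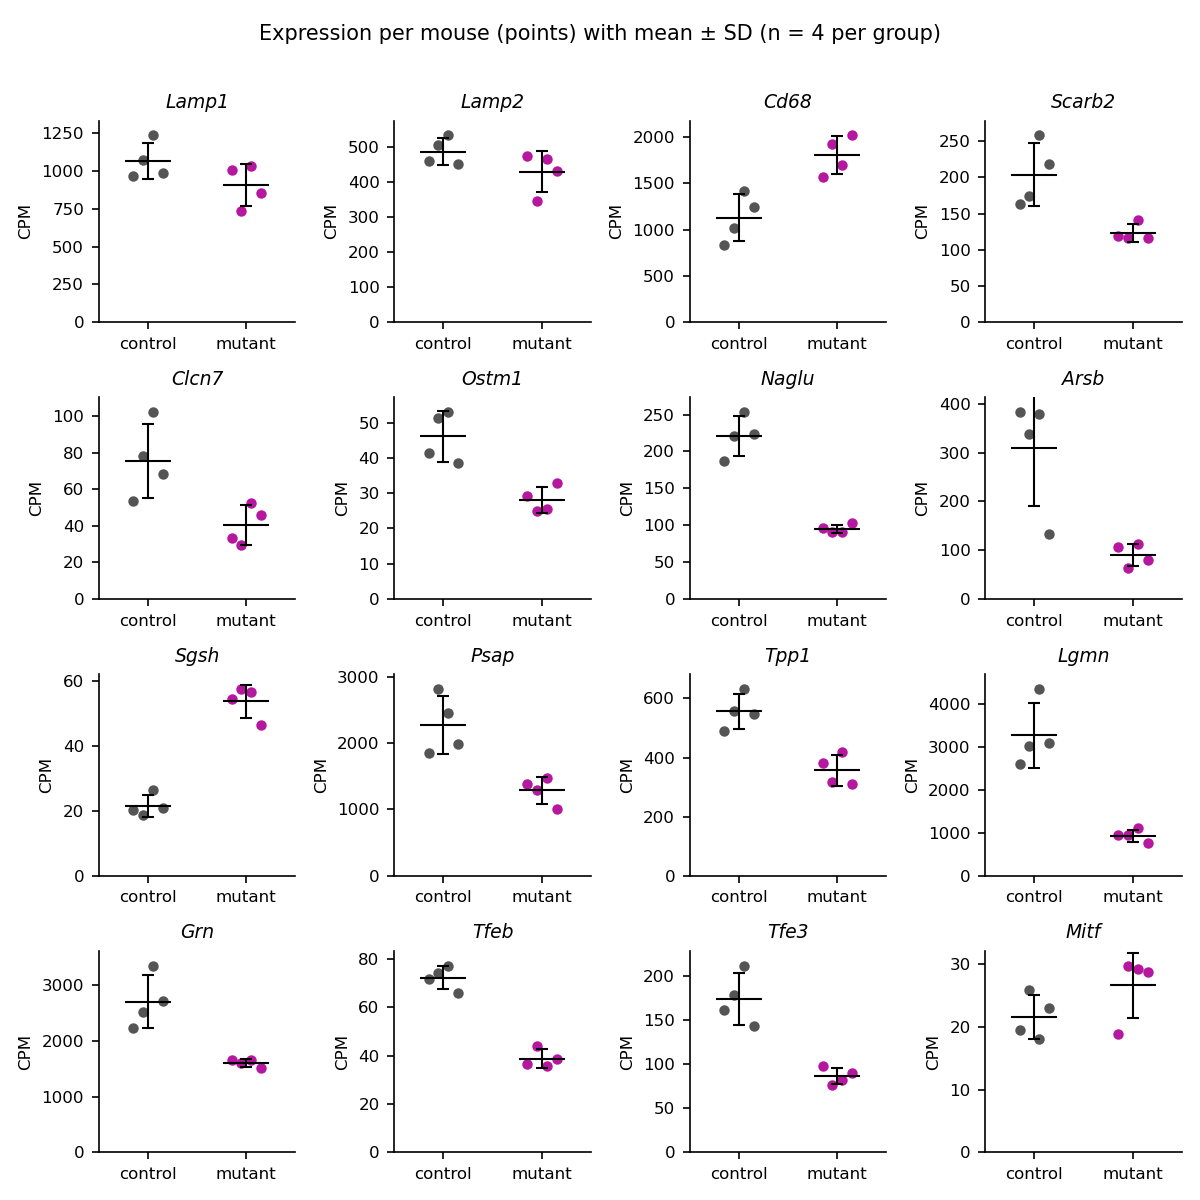
CPM in each of the 4 controls and 4 mutants (points, replicates 1 to 4 from left to right) with the group mean ± SD, on axes that start at 0, for the 12 called genes and for *Lamp1*, *Lamp2*, *Cd68* and *Mitf*. Mutant points lie below all control points in the 11 genes called lower and above them in *Sgsh* and *Cd68*, and the groups overlap in *Lamp1*, *Lamp2* and *Mitf*.

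Of 11 glycosidases, which remove sugars from glycoproteins, glycolipids and glycosaminoglycans, 1 was lower and 10 were not called. *Naglu* (ENSMUSG00000001751, chr11:101070012-101077672) encodes the N-acetylglucosaminidase of heparan sulfate breakdown. Controls were at 187, 222, 253 and 223 CPM and mutants at 95.7, 91.1, 91.1 and 103 CPM. The mutants lay within a narrow band far below the lowest control, a 2.33-fold difference (log2 fold change -1.22 ± 0.14 SE, edgeR adjusted p = 0.00077). The other 10 had log2 fold changes between -0.49 and 0.49. *Man2b1*, an α-mannosidase (-0.49, adjusted p = 0.111), and *Hexa*, the α subunit of β-hexosaminidase (-0.45, adjusted p = 0.139), were the lowest, and the sialidase gene *Neu1* was the highest (0.49, adjusted p = 0.153). *Gaa* (0.04), *Glb1* (-0.08), *Manba* (-0.07), *Fuca1* (-0.10), *Gla* (-0.21), *Gusb* (-0.33) and *Idua* (-0.36) had adjusted p-values between 0.281 and 0.933. Values of *Glb1*, *Manba* and *Fuca1* lay close enough to 0 that scaling by library totals, which moved the median of all genes from 0.01 to 0.13, put them above it (0.05, 0.05 and 0.03).

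The 4 sulfatases, which take sulfate off glycans and lipids, held the largest fall but 1 of the set and its only higher call. *Arsb* (ENSMUSG00000042082, chr13:93771630-93943016), the arylsulfatase of dermatan and chondroitin sulfate, was at 383, 339, 380 and 133 CPM in the controls and 106, 63.2, 113 and 80.4 CPM in the mutants. Control 4 was far below the other controls and near the highest mutant, and the SE was correspondingly wide (log2 fold change -1.77 ± 0.34 SE, edgeR adjusted p = 0.0104). The call held without control 4 and in each other fit that left out 1 mouse (adjusted p between 0.00149 and 0.0348). The exons of *Arsb* share 32.3% of their bases with *Gm26527* on the opposite strand, and that gene had no counts in any library.

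*Sgsh* (ENSMUSG00000005043, chr11:119343425-119355536) encodes the sulfamidase that takes sulfate off the glucosamine of heparan sulfate. It was at 20.3, 18.5, 26.4 and 20.9 CPM in the controls and 54.5, 57.5, 56.5 and 46.3 CPM in the mutants. The lowest mutant was well above the highest control, and the rise was 2.49-fold (log2 fold change 1.32 ± 0.16 SE, edgeR adjusted p = 0.00115). Its exons share 21.6% of their bases with *Card14* on the opposite strand, which was at 0 to 0.807 CPM. *Arsa*, which acts on sulfatide, had a log2 fold change of 0.03 (adjusted p = 0.934), and *Ids*, the iduronate sulfatase, -0.26 (adjusted p = 0.562). Exon bases shared with a gene on the opposite strand were 18.8% for *Arsa*, 12.8% for *Hexa*, 9.31% for *Lamp1* and 5.69% for *Ostm1*, and reads from such stretches cannot be assigned to a strand in these libraries. The Methods do not say how reads on shared stretches were counted. The low counts of *Gm26527* and *Card14* therefore do not settle what those stretches held.

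*Naglu* and *Sgsh*, which act in the same breakdown pathway, moved in opposite directions, and the groups overlapped in neither gene. Per kilobase of exon, the ratio of *Naglu* to *Sgsh* was 15.3, 19.9, 15.9 and 17.8 in the 4 controls and 2.92, 2.63, 2.68 and 3.69 in the 4 mutants. The other heparan sulfate enzymes of the set, *Ids*, *Idua* and *Gusb*, were not called. The acetyltransferase gene *Hgsnat* of the same pathway, named here after its values were seen, had a log2 fold change of 0.99 ± 0.29 SE (edgeR adjusted p = 0.0539). Its ranges overlapped, at 54.1 to 76.2 CPM in the controls and 68.9 to 194 CPM in the mutants. It was called in 1 of the 8 fits that left out 1 mouse.

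Among 7 genes of lipid breakdown and lipid transfer, 1 was lower and 6 were not called. *Psap* (ENSMUSG00000004207, chr10:60277627-60302597) encodes prosaposin, the precursor of the saposins that present sphingolipids to their hydrolases. Control values were 1858, 2817, 2448 and 1993 CPM and mutant values 1389, 1285, 1474 and 1004 CPM, without overlap (log2 fold change -0.82 ± 0.19 SE, edgeR adjusted p = 0.0248). The call held in 4 of the 8 fits that left out 1 mouse. *Ppt1*, a thioesterase that removes palmitate from proteins, had a log2 fold change of -0.49 (adjusted p = 0.135), and the acid lipase gene *Lipa* of 0.41 (adjusted p = 0.173), with mutants at 103 to 140 CPM all above controls at 63.9 to 102 CPM. The cholesterol carrier *Npc2* (0.29), the ganglioside activator *Gm2a* (-0.21), acid sphingomyelinase *Smpd1* (-0.14) and acid ceramidase *Asah1* (-0.03) had adjusted p-values between 0.246 and 0.943. With the same scaling *Asah1* was at 0.09.

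The transcription factors were split. *Tfeb* (ENSMUSG00000023990, chr17:47737030-47792419), a main driver of lysosomal genes, was at 71.7, 74.0, 77.3 and 66 CPM in the controls and 36.7, 44.2, 35.8 and 38.5 CPM in the mutants. *Tfe3* (ENSMUSG00000000134, chrX:7762560-7775202), its close relative, was at 162, 179, 212 and 144 CPM in the controls and 98.0, 76.6, 82.6 and 89.7 CPM in the mutants. Neither gene overlapped between groups, and the falls were 1.86-fold for *Tfeb* (log2 fold change -0.90 ± 0.14 SE, edgeR adjusted p = 0.00307) and 2.01-fold for the X-linked *Tfe3* (-1.0 ± 0.16 SE, adjusted p = 0.00428). *Mitf*, the third member, was at 19.5, 25.8, 18.1 and 22.9 CPM in the controls and 18.9, 29.7, 29.2 and 28.8 CPM in the mutants, where mutant 1 lay with the controls (log2 fold change 0.30 ± 0.21 SE, adjusted p = 0.374). Per kilobase of exon, *Mitf* made up 7.40 to 12% of the 3 transcripts together in the controls and 15.2 to 23.6% in the mutants.

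Promoters of the set were searched for the core of the element that these factors bind, the E-box CACGTG, which reads the same on both strands. RefSeq windows on GRCm38.p6, from 250 bases before to 50 after each start, were found for 37 of the 42 genes. The E-box was in at least 1 window of 12 of these 37 (32.4%) and of 8.09% of 27025 genes with windows. The longer words CACGTGAC or GTCACGTG, which contain it, were in 10 of 37 (27.0%) and 2.55% of all genes. The 27025 genes were taken whether expressed here or not. Since the element is known from lysosomal promoters, its share in a lysosomal set is no result of these data. By call, 3 of the 11 lower genes (*Clcn7*, *Naglu* and *Lgmn*), 1 of 1 higher genes (*Sgsh*) and 8 of the 25 genes not called that have a window held the E-box, so genes with it lay on both sides and among the uncalled. The 4 sequences below, 100 bases before to 20 after the start on the gene's strand with E-boxes in capitals, show 2 genes that fell, 1 that rose and 1 that was not called.
*Naglu*, chr11:101069994-101070113, plus strand: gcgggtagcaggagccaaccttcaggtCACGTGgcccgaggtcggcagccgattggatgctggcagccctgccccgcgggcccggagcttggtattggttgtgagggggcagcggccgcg
*Clcn7*, chr17:25133291-25133410, plus strand: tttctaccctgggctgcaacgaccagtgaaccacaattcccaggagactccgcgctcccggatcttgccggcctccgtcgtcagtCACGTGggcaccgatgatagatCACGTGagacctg
*Sgsh*, chr11:119355491-119355610, minus strand: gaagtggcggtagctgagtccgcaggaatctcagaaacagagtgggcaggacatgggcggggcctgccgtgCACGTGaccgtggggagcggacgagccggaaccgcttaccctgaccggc
*Lamp1*, chr8:13159061-13159180, plus strand: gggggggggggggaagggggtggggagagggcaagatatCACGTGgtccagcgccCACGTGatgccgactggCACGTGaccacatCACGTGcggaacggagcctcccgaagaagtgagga
*Lamp1*, with 4 E-boxes, had a log2 fold change of -0.23, and *Naglu* and *Sgsh*, with 1 each at 73 and 29 bases before the start, moved in opposite directions. A match is a description of the letters and does not show binding.

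None of the 5 tested subunits of the proton pump was called with edgeR or with DESeq2, and 1 of the 5 had an unadjusted p under 0.05 with edgeR. *Atp6v1a*, the catalytic subunit, had the highest value (log2 fold change 0.58 ± 0.24 SE, edgeR adjusted p = 0.143), with mutants at 125 to 199 CPM and controls at 71.8 to 136 CPM. *Atp6v1h* (0.20), *Atp6v0d1* (0.02), the accessory subunit *Atp6ap1* (-0.16) and *Atp6v1b2* (-0.22) had adjusted p-values between 0.44 and 0.973. The summed level of the subunits was 1038 to 1225 CPM in the controls and 1013 to 1160 CPM in the mutants, and these ranges overlapped.

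The genes that fell included the most abundant ones of the set. Per kilobase of exon, the highest levels in the controls were those of *Lgmn* (1406 ± 324 CPM per kilobase, SD, n = 4), *Cd68* (899 ± 204), *Psap* (831 ± 160) and *Grn* (780 ± 136). In the mutants *Cd68* was highest (1436 ± 162 CPM per kilobase), above *Psap* (469 ± 75) and *Grn* (464 ± 21), which lay within each other's spread, and *Lgmn* (402 ± 61). *Hexa*, *Lamp1*, *Atp6ap1* and *Asah1* held ranks 5 to 8 in both groups. *Naglu* moved from rank 13 to 20 and *Sgsh* from rank 40 to 29 of 42.

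**Figure D3:**
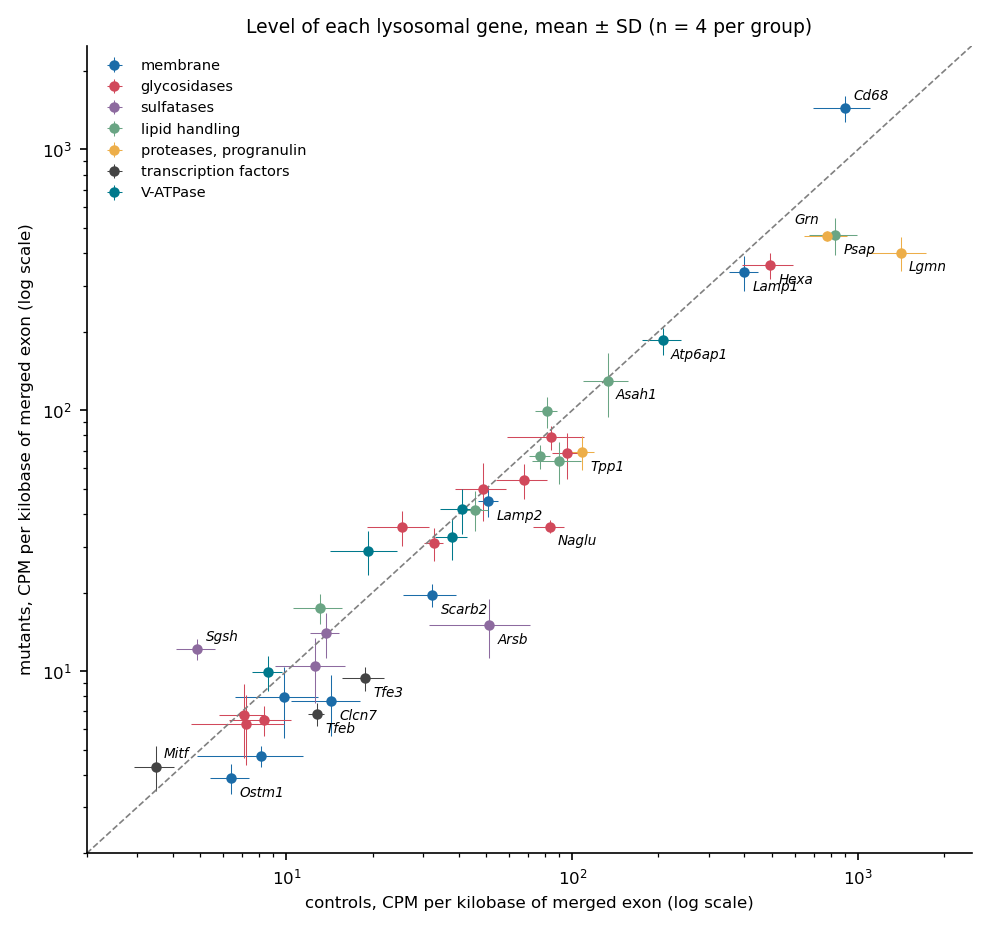
Mean level of each of the 41 tested genes in the mutants (vertical) against the controls (horizontal), in CPM per kilobase of merged exon on log axes, with SD bars (n = 4 per group) and the dashed line of equal levels. *Lgmn*, *Psap* and *Grn* lie below the line at the top right, *Cd68* and *Sgsh* above it, and most other genes near it.

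Together the 42 genes took 1.58 to 2.23% of scaled counts in the controls and 1.23 to 1.43% in the mutants. *Lgmn*, *Psap* and *Grn* alone made up 42.4 to 45.5% of the set's counts in the controls and 26.5 to 30.3% in the mutants. Summed by role, the protease group went from 5337 to 8336 CPM in the controls to 2580 to 3185 CPM in the mutants, the lipid group from 3474 to 4567 CPM to 2607 to 3375 CPM, and the transcription factors from 232 to 307 CPM to 148 to 157 CPM, each without overlap. The lipid sum was led by *Psap*, at 1858 to 2817 CPM in the controls and 1004 to 1474 CPM in the mutants. The other 6 genes of the lipid group were not called. Sums of the glycosidases (2515 to 3720 against 2149 to 2689 CPM) and of the sulfatases (259 to 540 against 210 to 291 CPM) overlapped between groups. The membrane proteins, whose sum was led by *Cd68*, were at 2635 to 3818 CPM in the controls and 3292 to 3596 CPM in the mutants, within the controls' range.

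**Figure D4:**
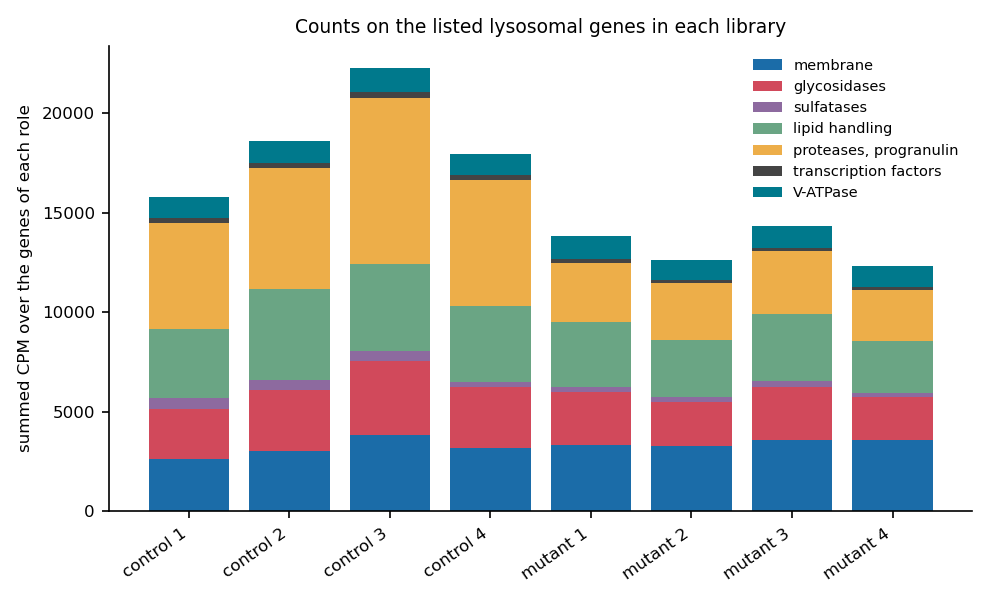
Summed CPM of the 42 genes in each of the 8 libraries, stacked by role, on an axis that starts at 0. Totals are 15817 to 22305 CPM in the controls and 12346 to 14340 CPM in the mutants, and the protease group (yellow) makes the most visible difference.

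The same comparison was made for 64 other lysosomal genes. They were chosen by function as further enzymes, membrane proteins, pump subunits, sorting factors and the mTORC1 machinery at the lysosome. Like the main set, this list was chosen with earlier results of these data known, so it is no independent check of that set. All 64 were tested, 20 were lower, 4 were higher and 40 were not called, with a median log2 fold change of -0.06. Lower calls were 31.2% of the 64 and higher calls 6.25%, against 7.97% and 4.36% of all genes tested. Among genes at least as high as the lowest tested member of the main set, 16.4% were called lower and 6.61% higher. The wider list also holds genes below that level, such as *Hyal1*. By kind, 7 of 17 enzymes, 5 of 15 membrane proteins, 3 of 12 pump subunits, 3 of 7 sorting factors and 2 of 13 mTORC1 genes were lower, and 2, 1, 1, 0 and 0 were higher. The count of lower genes was 13 without control 2, control 3 or mutant 4, and 12 with both replicate 1 libraries left out. With DESeq2, 7 were higher and 22 lower, where 9.11% and 11.6% of all genes with an adjusted p were.

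*Acp5*, *Atp6v0a2*, *Sort1*, *Rptor* and *Slc29a3* had larger fold changes, up or down, than *Lgmn*, the gene of the main set with the largest. *Acp5*, tartrate-resistant acid phosphatase, was at 1.94, 7.37, 3.47 and 5.08 CPM in the controls and 108, 105, 166 and 121 CPM in the mutants (log2 fold change 4.81 ± 0.42 SE, edgeR adjusted p = 0.000165). *Galc*, which removes galactose from myelin lipids, was at 13, 14.3, 12 and 9.71 CPM in the controls and 34.7, 34.2, 51.7 and 38.3 CPM in the mutants (1.70 ± 0.21 SE, adjusted p = 0.000998). In both genes every mutant was above every control.

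*Sort1*, the sorting receptor that takes up progranulin, was at 90.4, 107, 113 and 127 CPM in the controls and 20.9, 20.7, 21.1 and 21.4 CPM in the mutants (log2 fold change -2.38 ± 0.15 SE, edgeR adjusted p = 4.82e-05). *Atp6v0a2*, an isoform of the pump's membrane subunit, was at 149, 140, 208 and 131 CPM in the controls and 36.2, 27.3, 28.7 and 20.1 CPM in the mutants (-2.48 ± 0.23 SE, adjusted p = 0.000242). In both genes every mutant was far below every control. Of its other isoforms, named after their values were seen, *Atp6v0a1* was not called (-0.14, adjusted p = 0.658) and *Tcirg1* was lower (-1.29, adjusted p = 0.00579). *Rptor*, the scaffold of mTORC1, was at 81.5, 106, 127 and 90.6 CPM in the controls and 22.9, 18.8, 23.8 and 14.8 CPM in the mutants, without overlap (-2.33 ± 0.21 SE, adjusted p = 0.00023). *Mtor* itself, also named afterwards, had a log2 fold change of 0.01 (adjusted p = 0.99). The nucleoside transporter gene *Slc29a3* was at 398, 547, 695 and 519 CPM in the controls and 141, 147, 137 and 132 CPM in the mutants (-1.95 ± 0.18 SE, adjusted p = 0.000264). *Laptm5*, which encodes a lysosomal membrane protein of leukocytes, was at 4635, 5344, 6443 and 6001 CPM in the controls and 1973, 1849, 2572 and 1744 CPM in the mutants (-1.46 ± 0.19 SE, adjusted p = 0.00128). Neither gene overlapped between groups. These 7 genes kept their call in each of the 8 fits that left out 1 mouse.

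**Figure D5:**
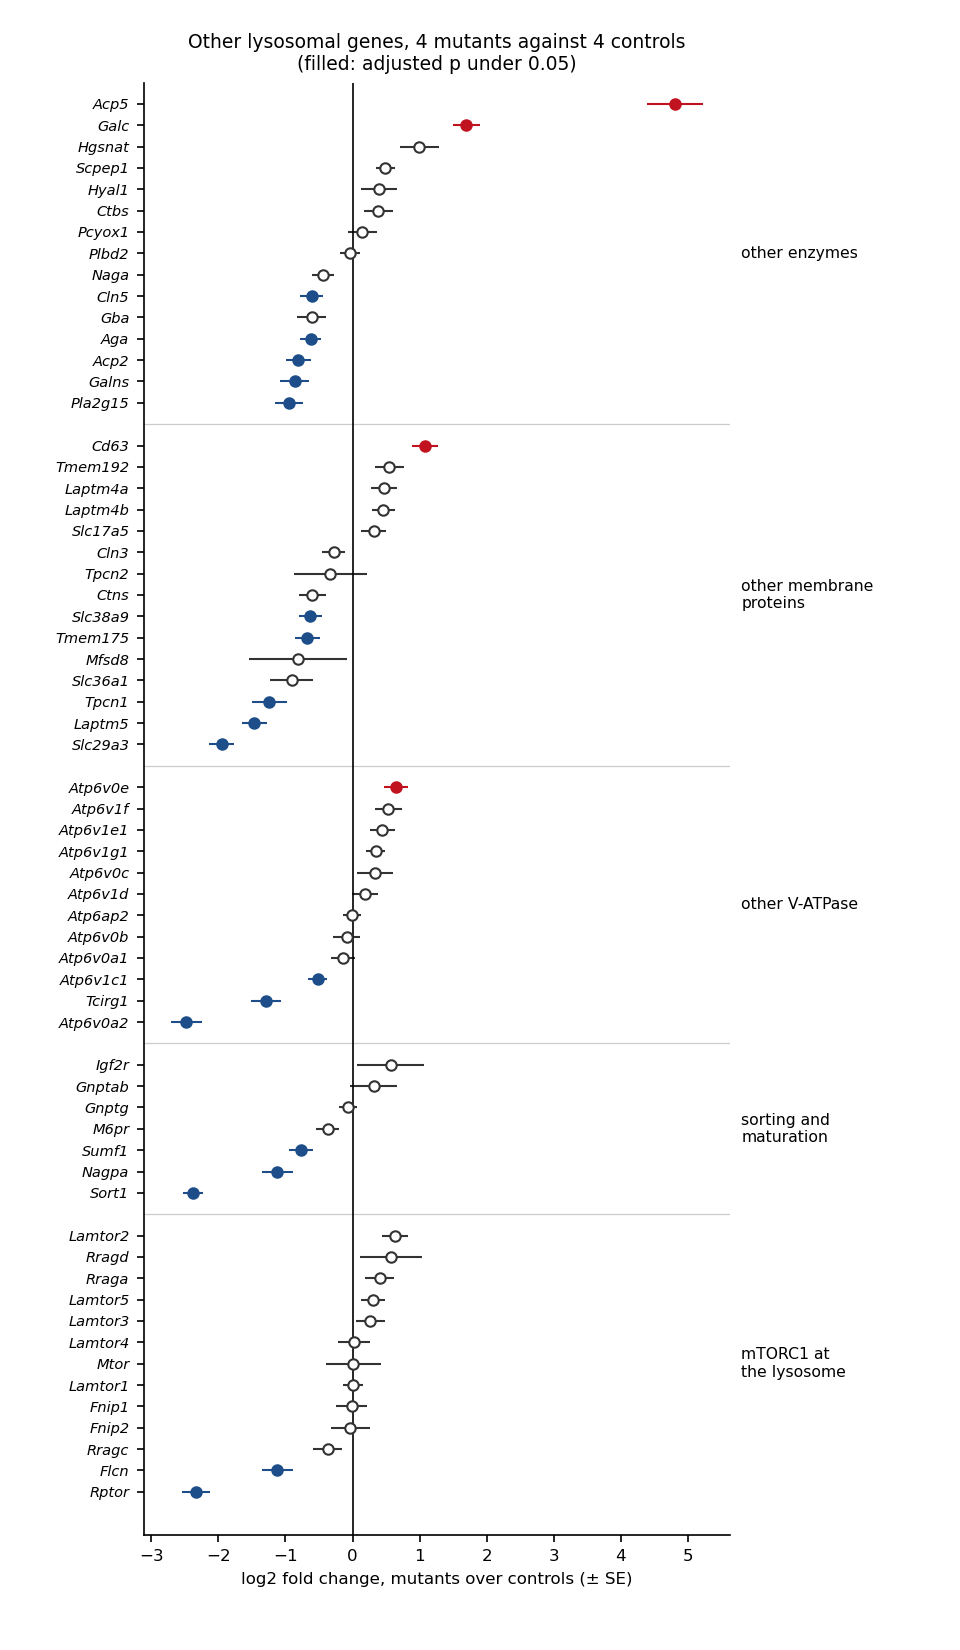
Log2 fold change of mutants over controls with its standard error for the other lysosomal genes reported singly, by kind; filled points passed the test (blue lower, red higher) and open points did not. *Acp5* stands alone at 4.81, *Atp6v0a2* is lowest of those drawn at -2.48, and the kinds each hold filled points below 0.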

How the data were processed

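Microglia were isolated on a Percoll gradient and sorted, and their RNA was sequenced (1 library per mouse). Library preparation is NEBNext with polyA selection and paired ends in the Methods, and Nextera XT with single ends in the labels, without strand in both. The accession that the Methods give for the *Smad2/3* mutants is not that of this series, and genotype and cell type were used to identify the experiment. The authors used Rsubread (mm10) and featureCounts and deposited the raw counts per gene, which were analysed unchanged. Aligner version and annotation are not given in the sources used here. A deposited table of the authors' DESeq2 comparison (fold changes, standard errors and p-values) was not used.

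Gene identifiers were matched to GENCODE M21 on GRCm38 (55480 of 55573). A gene was kept when 4 or more of the 8 libraries had 10 or more counts. The groups were compared with edgeR 4.0.16 in R 4.3.3 (TMM, glmQLFit and glmQLFTest, no block), with Benjamini-Hochberg adjustment over the 20153 genes tested, and an adjusted p under 0.05 made a call. SE is the log2 fold change divided by the square root of F. Libraries held 35639502 to 41946479 counts, and the common biological coefficient of variation was 0.541, so the spread between mice rather than counting set the precision. Replicate libraries correlated at 0.894 to 0.943 (controls) and 0.870 to 0.929 (mutants), and none was a copy of another. The labels number the mice without saying what a number pairs, and nothing states separate litters, so p-values measure the spread between these mice.

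The members and the other lists were chosen with earlier results of these data known. Values per mouse are printed for up to 16 called members of largest fold change, for *Lamp1*, *Lamp2*, *Cd68*, *Tfeb*, *Tfe3*, *Mitf* and called X-linked members, and, of the wider list, for up to 8 called genes of largest fold change; 2 genes of that list count in its totals but are not reported singly here. Alternatives were DESeq2 1.42.0, RLE factors, library totals, 2 other filters, a replicate block, autosomal and mitochondrial genes only, and each mouse left out; leaving out both replicate 1 libraries, which held the most neuron RNA of their groups, was chosen after seeing the data. Fits were tested on simulated data first, where a larger share of DESeq2 calls than of edgeR calls was false. The simulated counts used the spread per gene that edgeR had estimated, so they do not rank the tools. Sharing of exons with other genes was read from GENCODE M21. Tables and plots used Python 3.11.15, pandas 2.3.3, numpy 2.4.6 and matplotlib 3.10.9.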

Additional observations from a re-analysis of the deposited data

Results flagged for a closer look

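Of 130 groups of 4 mice checked over the 41 tested genes of the set and the 24 called genes of the wider list, 8 held 1 mouse whose gap to the nearest other mouse exceeded the 95% critical value of Dixon's test, where chance alone gives about 1 in 20. *Scarb2* was at 141.7 CPM in mutant 3, against 118.4 in the next mutant, and stayed below all controls. *Gaa* was at 303.6 CPM in control 2, *Asah1* at 573.0 in control 3, *Atp6v1b2* at 163.2 in control 4 and *Pla2g15* at 891.4 in control 3. *Smpd1* was at 102.4 CPM in mutant 4, *Galns* at 12.5 in mutant 4 and *Mitf* at 18.9 in mutant 1. No mouse accounts for more than 2 of the 8, and *Scarb2*, *Galns* and *Pla2g15* are the called genes among them.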

How the results depend on the processing

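No listed gene that was called changed sign under any alternative. The 1 higher gene of the set became 2 with DESeq2, 2 with library totals, 2 with at least 10 counts in all 8 libraries and 1 to 2 with a mouse left out, *Cd68* being the gene added. Lower genes of the set ranged from 6 to 12 with a mouse left out and were 7 with both replicate 1 libraries left out; RLE factors, library totals, both filters, DESeq2 and autosomal genes only gave 9 to 12. Of the 64 other genes, 7 were higher with DESeq2, 12 were lower with both replicate 1 libraries left out, and with a mouse left out 3 to 5 were higher and 13 to 18 lower. With a replicate block the set had 3 higher genes (*Sgsh*, *Cd68* and *Atp6v1a*) and 10 lower (*Ostm1* lost), and over all genes 886 higher and 1497 lower calls against 878 and 1607. Same-numbered mice correlated at 0.166, 0.0183, 0.144 and 0.114 in their deviations from the group means, and replicate 2 correlated better with another number (0.108), so the numbers were not taken to pair the mice. Over all genes, lower calls were 1005 without control 3 and 1047 without control 2, higher calls were 525 without control 2, 562 without control 3 and 573 without mutant 2, and DESeq2 made 2089 higher and 2662 lower calls. Library totals moved the median log2 fold change of all genes from 0.01 to 0.13 and that of the set from -0.22 to -0.10. Fits that leave out mice tested the same genes with fewer mice. Depth was alike in all libraries, and *Atp6v0d2*, at 0 counts, was not detectable at it.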
